A study of Eucalyptus grandis
Pisolithus microcarpus and Eucalyptus grandis with 23 samples.

Results

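In roots of Eucalyptus grandis, 120 of 36376 genes were less abundant in every one of 12 libraries from roots colonised by an ectomycorrhizal fungus than in every one of 11 libraries from uncolonised roots. Abundance was measured as CPM, the usual scaling of a gene's reads to the total gene reads of its library, with the transcript Eucgr.B01584.1 left out of the totals. A gene was a member when its highest CPM among the mycorrhizal libraries was below its lowest CPM among the controls and its highest control CPM was at least 1. Of the 25819 genes with such a control level, 0.465% met the rule, and 151 genes met its mirror image, with every mycorrhizal library above every control. The members were thus chosen by their mycorrhizal and control levels, which are given as a description without a test. Tests were made on contrasts that the rule did not make. These were elevated CO2 within each kind of root, the difference between fungal strains, and the difference in CO2 response between kinds of root. The rule still drew on every library of these groups. The shares of members called, and the levels and fitted sizes of single members, are thus not free of the selection.

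An ectomycorrhiza is a joint organ of root and fungus. Hyphae wrap the fine roots of trees such as eucalypts in a sheath and grow between the outer root cells as the Hartig net, where the tree gives sugars and receives mineral nutrients. Roots are known to change their branching and root hair growth when the sheath forms, so a colonised root can hold a different mix of cells from an uncolonised one. In whole-root RNA, fewer cells of a type and less RNA per cell cannot be told apart.

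Seedlings of 1 month were grown in vitro on a dilute MMN medium with glucose, each in a dish with a plug of Pisolithus microcarpus laid on the root, or without a fungus for the axenic controls, and kept for 1 month. The fungus was strain SI-9 or strain SI-12, and chambers were held at 400 or 650 ppm CO2. Control roots gave 6 libraries at 400 ppm and 5 at 650 ppm, and SI-9 and SI-12 roots gave 3 libraries at each CO2 level. The labels name no plant genotype, and the tables hold plant genes only, under IDs with no names or functions, so the members are described here by ID and level, and tissue markers could not be checked.

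Gene reads ranged from 4497662 to 30210474 per library, so that 3 reads correspond to 0.0995 to 0.683 CPM. Libraries of a group fell into near-identical sets. Beyond what counting alone gives, pairs inside a set varied by a coefficient of variation between 0.0573 and 0.16, and pairs from different sets of a group by 0.244 to 0.514. The sets are control libraries 1 to 3 and 4 to 6 at 400 ppm, control libraries 1 to 2 and 3 to 5 at 650 ppm, SI-9 libraries 1 and 3 apart from library 2 at 400 ppm, SI-9 libraries 1 and 2 apart from library 3 at 650 ppm, and each SI-12 group whole, 10 sets in all. Per the labels all are biological replicates, but the p-values measure only how far libraries spread, and the spread inside a set may be technical. Each count of calls is thus shown for 23 libraries and again for 10 sets taken as replicates. With sets, each SI-12 group has no replicate of its own, so a call lost there decides little. SI-9 libraries and some controls carry library numbers 1 to 12 in the deposited names, and SI-12 libraries and the other controls carry 13 to 24, so strain and library number cannot be told apart.

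The summed level of the 120 members had little spread within each group. It was 12156 to 13038 CPM in control libraries at 400 ppm (median 12714) and 13157 to 14005 CPM at 650 ppm. Colonised roots had 7438 to 7833 CPM (SI-9) and 7663 to 8100 CPM (SI-12) at 400 ppm, and 7066 to 7570 CPM (SI-9) and 6895 to 6968 CPM (SI-12) at 650 ppm. The rule fixed in advance that every mycorrhizal sum lies below every control sum, so only the size of the gap is described. The lowest control stood well above the highest mycorrhizal library.

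**Figure D1:**
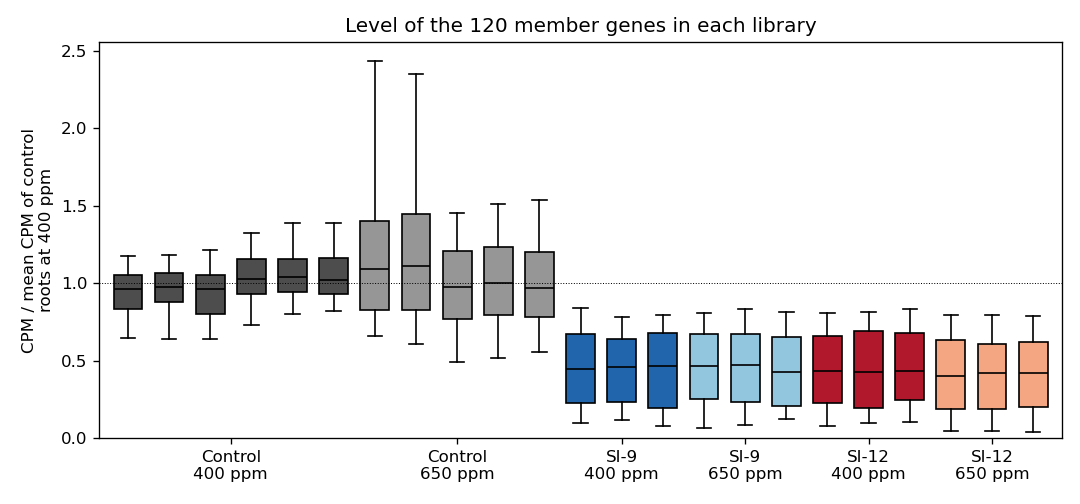
Level of the 120 members in each of the 23 libraries, as CPM divided by the gene's mean CPM in control roots at 400 ppm (vertical axis); boxes show the quartiles and median over members, whiskers the 10th and 90th percentiles, and each box is 1 library. Library medians lie at 0.961 to 1.11 in controls and at 0.404 to 0.471 in colonised roots.

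Taken against the controls of the same CO2 level, the median member stood at 0.454 of the control mean in SI-9 roots and 0.448 in SI-12 roots at 400 ppm, and at 0.441 and 0.384 at 650 ppm. Over all 25819 genes of the same control level the medians were 1.01, 1.00, 1.04 and 1.05. The comparisons at one CO2 level share their controls, so these medians are given side by side and not set against each other. The lowest ratio of a member lay in SI-12 roots at 650 ppm for 45 members and in SI-12 roots at 400 ppm for 28. It lay in SI-9 roots at 650 ppm for 24 and in SI-9 roots at 400 ppm for 23. No count over all genes stands beside these, so they describe the members and do not rank the groups.

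The depth of the fall differed widely among members. A mean at least 2-fold under the control mean was found for 65 members in SI-9 roots and 69 in SI-12 roots at 400 ppm, where 9.8% and 12.8% of all genes were as low, and for 69 and 73 at 650 ppm, where 11.8% and 11.9% were. In all 4 groups 37 members were at least 2-fold lower (1.21% of all genes), and 32 members reached this in no group. Only 8 members were at least 4-fold lower in all 4 groups, and 4 were at least 10-fold lower in all 4, where the shares of all genes were 0.279% and 0.0852%. These 8 were Eucgr.A01553.1, Eucgr.A02731.1, Eucgr.B01590.1, Eucgr.C03917.1, Eucgr.D01195.1, Eucgr.G02143.1, Eucgr.G02154.1 and Eucgr.H01141.1, and the 4 lowest among them were Eucgr.A01553.1, Eucgr.C03917.1, Eucgr.G02143.1 and Eucgr.G02154.1. In Eucgr.C03917.1, control libraries 1 to 3 at 400 ppm held 3, 6 and 3 reads, or 0.0995 to 0.227 CPM, against 3.16 to 4.13 CPM in libraries 4 to 6 and at most 0.0743 CPM in SI-9 roots, so its fold at 400 ppm rests on libraries 4 to 6. Some of the 8 were named here because of these values, outside the rule for named genes. The fold of Eucgr.A01553.1 at 400 ppm rests on control libraries 1 to 3, as given below. Between 74.0% and 81.1% of the reads of Eucgr.C03917.1, Eucgr.D01195.1, Eucgr.G02143.1 and Eucgr.G02154.1 matched 1 gene only, so their counts are uncertain.

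The gap between controls and colonised roots was usually narrow. Dividing a member's highest mycorrhizal CPM by its lowest control CPM gave 0.338 to 0.998 with a median of 0.903. The ratio was at least 0.95 for 39 members and under 0.5 for 4. Another 197 genes of the same control level had a ratio of 1 to 1.1, just outside the rule. Closest inside were Eucgr.C00154.1, at 303.0 CPM in its highest mycorrhizal library and 303.6 CPM in its lowest control, Eucgr.D01130.1 and Eucgr.H02679.1. Closest outside were Eucgr.L01909.1, Eucgr.C02284.1 and Eucgr.B03389.1, whose ratios exceeded 1 by less than 0.005. The member with the lowest level was Eucgr.I01962.1, whose highest control library had 2.15 CPM, and 0 genes below 1 CPM met the rest of the rule.

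**Figure D2:**
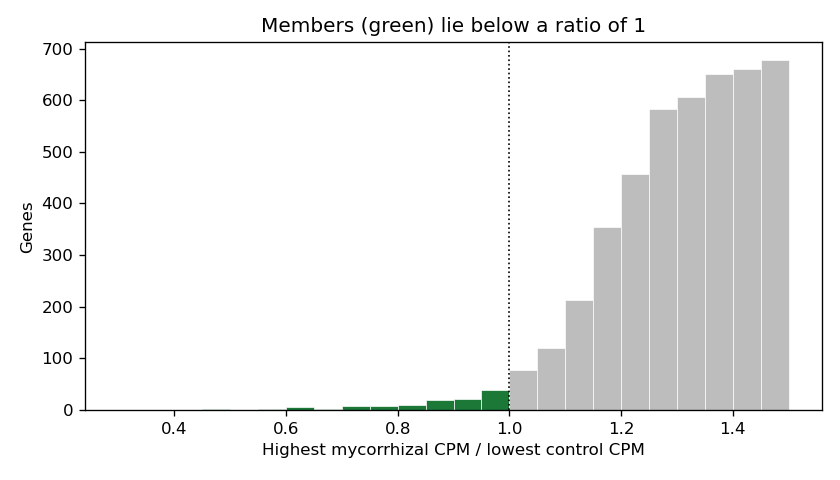
Number of genes (vertical axis) by the ratio of the highest mycorrhizal to the lowest control CPM (horizontal axis, bins of 0.05, ratios from 0.3 to 1.5), for genes with a highest control CPM of at least 1. The 120 members (green) lie below the dotted line at 1, and the 77 genes of the first bin above it outnumber the 39 members of the last bin below it.

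The widest relative gap was that of Eucgr.G02143.1. Control roots had 6.81 to 16.9 CPM at 400 ppm (median 11.1) and 3.89, 3.07, 3.90, 3.79 and 3.42 CPM at 650 ppm. SI-9 roots had 0.683, 0.876 and 1.04 CPM at 400 ppm and 0, 0 and 0.418 CPM at 650 ppm, and SI-12 roots had no reads in 3 libraries at 400 ppm and 0.212, 0.161 and 0.0871 CPM at 650 ppm. Its highest mycorrhizal value was 0.338 of its lowest control value, and the absence of reads in SI-12 roots at 400 ppm puts it at least 132-fold under control, taking 3 counts summed over the 3 libraries as the floor, here and below. The other folds were 13.3 (SI-9, 400 ppm), 26.0 (SI-9, 650 ppm) and 23.5 (SI-12, 650 ppm), from group totals of 26, 10 and 7 reads.

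Eucgr.B02924.1 combined a wide gap with a high level. Controls ranged from 161 to 187 CPM at 400 ppm (median 176) and had 166, 162, 138, 150 and 155 CPM at 650 ppm. SI-9 roots had 16.9, 39.3 and 16.1 CPM at 400 ppm and 43.5, 41.6 and 27.7 CPM at 650 ppm. SI-12 roots had 61.0, 55.3 and 61.2 CPM at 400 ppm and 16.1, 18.5 and 13.1 CPM at 650 ppm. Every colonised library stood far below the lowest control, with SI-12 roots at 400 ppm the highest and SI-12 roots at 650 ppm the lowest, 2.97-fold and 9.69-fold under control.

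Eucgr.G01843.1 and Eucgr.D00528.1 were less even among the controls. Eucgr.G01843.1 had 13.7, 14.0 and 13.7 CPM in control libraries 1 to 3 and 57.8, 53.9 and 66.4 CPM in libraries 4 to 6 at 400 ppm, so the sets of that group differed widely while each was tight. In colonised roots it had 3.87, 4.28 and 4.24 CPM (SI-9) and 5.68, 4.79 and 6.50 CPM (SI-12) at 400 ppm, and 5.42, 5.12 and 4.80 CPM (SI-9) against 0.478, 0.563 and 1.05 CPM (SI-12) at 650 ppm. SI-12 roots at 650 ppm held the lowest values, 29.1-fold under control. Eucgr.D00528.1, of which 85.9% of reads matched 1 gene only, had 18.4 to 39.6 CPM in controls at 400 ppm (median 28.8), this time with libraries 1 to 3 higher. At 400 ppm, SI-9 roots averaged 2.36 ± 1.21 CPM (SD, n = 3) and SI-12 roots 6.38 ± 1.30 CPM. At 650 ppm the means were 1.17 ± 1.20 CPM with SI-9 and 6.12 ± 0.699 CPM with SI-12, so SI-12 roots lay above SI-9 roots at both levels of CO2 without overlap. By edgeR with 23 libraries the difference was called at 650 ppm only (log2 fold change 2.33, SE 0.59, adjusted p = 0.0106). At 400 ppm the log2 fold change was 1.52 (SE 0.62, adjusted p = 0.0714).

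**Figure D3:**
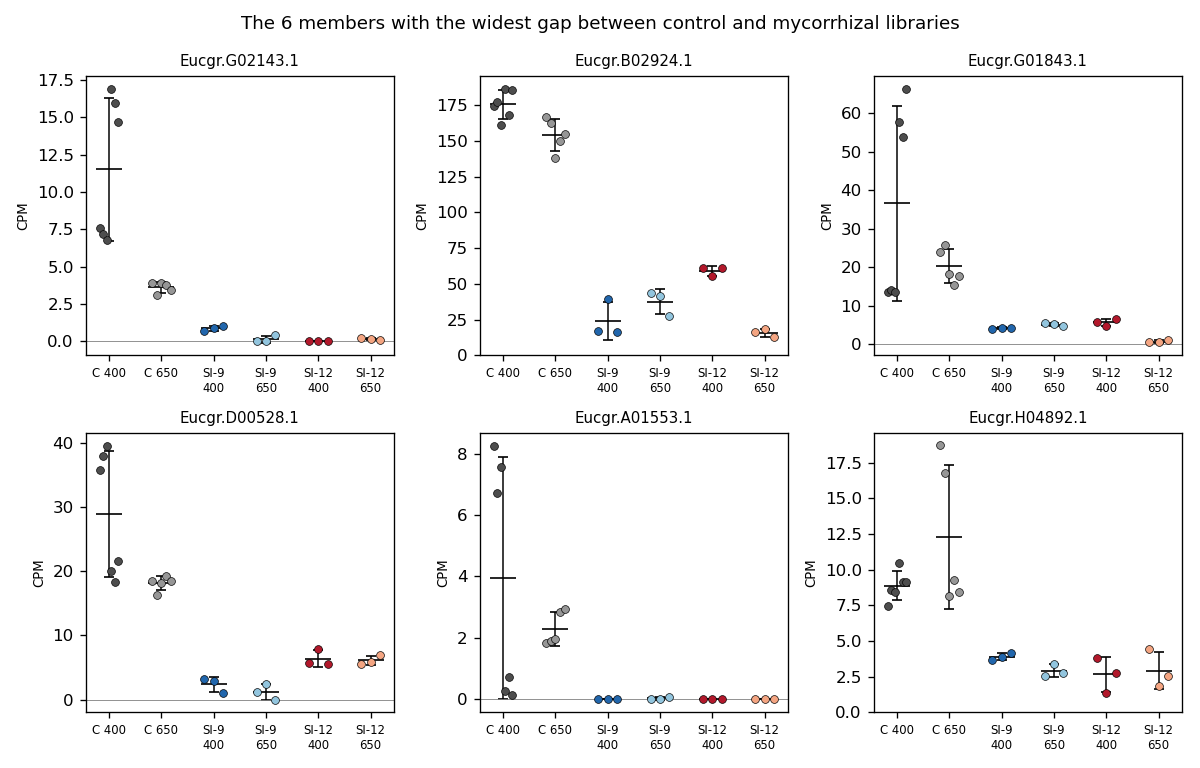
CPM (vertical axes, linear) of the 6 members with the lowest ratio of highest mycorrhizal to lowest control CPM, by group (horizontal axis; C, control; ppm CO2); each point is a library, the bar is the group mean and the whisker its SD. The 3 lowest points of Eucgr.A01553.1 among controls are libraries 4 to 6 at 400 ppm, at 0.255, 0.708 and 0.148 CPM, still above each mycorrhizal library.

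Eucgr.A01553.1 was near absent from colonised roots. Its controls at 400 ppm had 8.26, 6.73 and 7.58 CPM in libraries 1 to 3 and 0.255, 0.708 and 0.148 CPM in libraries 4 to 6, and its controls at 650 ppm had 1.82 to 2.93 CPM. Colonised roots held 2 reads in all, both in SI-9 library 3 at 650 ppm, with none in SI-9 roots at 400 ppm and in SI-12 roots at either level of CO2. It was therefore at least 37.0-fold (SI-9, 400 ppm), at least 45.2-fold (SI-12, 400 ppm) and at least 32.6-fold (SI-12, 650 ppm) lower than the control mean. The folds at 400 ppm rest on control libraries 1 to 3. Libraries 4 to 6 stood much closer to the floors of 0.107 CPM (SI-9) and 0.0872 CPM (SI-12). Because control libraries 4 to 6 hold between 2 and 15 reads, the margin of this gene rests on few reads there. Eucgr.H04892.1 had 7.46 to 10.5 CPM in controls at 400 ppm (median 8.87), 18.7, 16.7, 8.13, 9.29 and 8.47 CPM in controls at 650 ppm, and 1.38 to 4.41 CPM over the 12 colonised libraries.

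Several members had no reads in a whole group. A group of colonised roots without a single read was found for Eucgr.A01553.1 (SI-9 and SI-12 at 400 ppm, SI-12 at 650 ppm), Eucgr.B01590.1 (SI-9, 650 ppm) and, in SI-12 roots at 400 ppm, for Eucgr.C03917.1, Eucgr.D01195.1, Eucgr.G00595.1, Eucgr.G02143.1, Eucgr.G02154.1 and Eucgr.L00902.1. Eucgr.G00595.1 was without reads in both SI-12 groups, at least 113-fold (400 ppm) and at least 48.5-fold (650 ppm) below control. Only 63.5% of the reads of Eucgr.L00902.1 matched 1 gene. Libraries of Eucgr.D01195.1 differed within SI-9 roots at 650 ppm, at 4.86, 5.08 and 0 CPM, where library 3 is the one that stands apart.

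The 6 most abundant members per length differed in the depth of their fall. Eucgr.B02924.1, described above, had 138 to 187 CPM in controls and 13.1 to 61.2 CPM in colonised libraries. Eucgr.F03054.1, described below, had 426 to 646 CPM and 66.8 to 356 CPM. Eucgr.D01413.1 had 346 to 624 CPM and 131 to 312 CPM. The others were less deeply reduced. Eucgr.G01417.1 had the highest control level per kb, a median of 579 CPM per kb against 387 CPM per kb over colonised libraries. Its controls had 552 to 635 CPM at 400 ppm (median 608) and 657 to 702 CPM at 650 ppm, and its colonised libraries had 375 to 514 CPM. It stood at 0.829, 0.615, 0.72 and 0.569 of control in SI-9 at 400 ppm, SI-9 at 650 ppm, SI-12 at 400 ppm and SI-12 at 650 ppm, respectively. Eucgr.D01723.1 followed at 568.4 CPM per kb in control libraries and 321 CPM per kb in colonised libraries, as medians, and was 1.67-fold to 2.59-fold lower in the 4 groups. Eucgr.H02679.1 lay at 711 to 775 CPM in controls at 400 ppm and 728 to 837 CPM at 650 ppm, while SI-9 library 1 at 400 ppm reached 709 CPM, so this gene met the rule by a narrow margin, with a ratio of 0.997.

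Depth was also set beside the control level, which the rule used. The 12 members with a median control level under 5 CPM stood at a median of 0.288, 0.147, 0.17 and 0.122 of control in SI-9 at 400 ppm, SI-9 at 650 ppm, SI-12 at 400 ppm and SI-12 at 650 ppm. In the same order, the 29 members at 5 to 20 CPM stood at 0.183, 0.326, 0.262 and 0.238, the 47 members at 20 to 100 CPM at 0.532, 0.445, 0.463 and 0.444, and the 32 members over 100 CPM at 0.625, 0.609, 0.67 and 0.559. Both class medians under 20 CPM were thus lower than both above it in each group, and in SI-9 roots at 400 ppm the lowest class was that of 5 to 20 CPM. What part the rule had in this order was not tested. From the lowest class to the highest, members were 0.131%, 0.442%, 0.607% and 1.38% of all expressed genes.

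Length, read matching and ID were not used by the rule. Members had a median length of 1478 bases, as did all genes of the same control level, and 24 of the 120 members had fewer than 90% of their reads matching 1 gene only, against 20.7% of all such genes. The control level and its spread are values the rule used. The median control level was 39.9 CPM for members against 11.6 CPM for all, or 27.6 against 8.06 CPM per kb. Control libraries spanned more than 2-fold for 55 members (45.8%) against 50.2% of all. By the letter in the gene ID, 19 members (15.8%) had a G and 15 (12.5%) a D, where 7.40% and 6.00% of all expressed genes had them, and 3 had an L and 5 an E (2.50% and 4.17%, against 5.45% and 8.54%). These shares are descriptions, and no test was made on them.

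Some members lay next to each other in ID number. In 9 pairs, 18 members had the same letter and numbers at most 3 apart, and no run was longer than 2. Around these pairs, 22 other genes within 2 numbers had a control median of at least 1 CPM. Their mycorrhizal median was below the control median in 15, and at most 0.5 of it in 6. No share of all expressed genes stands beside these counts, and no expected number of pairs beside the 9. Whether either is more than usual was not tested. The pairs named are those 3 that hold the lowest ratio, a choice made after the values were seen.

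Eucgr.B02925.1, next to Eucgr.B02924.1, had 93.0 to 113 CPM in controls at 400 ppm (median 99.0) and 80.7 to 98.6 CPM at 650 ppm. Colonised roots had 17.8, 22.4 and 17.8 CPM (SI-9) and 33.8, 37.2 and 33.9 CPM (SI-12) at 400 ppm, and 32.4, 32.8 and 15.8 CPM (SI-9) and 65.0, 53.5 and 62.7 CPM (SI-12) at 650 ppm. By group mean the neighbours were lowest in different groups, since SI-12 roots at 650 ppm had the lowest mean of Eucgr.B02924.1 and the highest colonised values of Eucgr.B02925.1. In SI-12 roots Eucgr.B02924.1 fell at 650 ppm (log2 fold change -1.90, SE 0.23, adjusted p = 2.85e-06 by edgeR with 23 libraries) and Eucgr.B02925.1 rose (0.78, SE 0.18, adjusted p = 0.0018). Neither was called with 10 sets as replicates, but each SI-12 group is then 1 set, so that fit cannot decide on either change.

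Eucgr.D00525.1 and Eucgr.D00528.1 form another pair, with 53.8% and 85.9% of reads matching 1 gene only, so that reads may be split between them or with other genes. Eucgr.D00525.1 had 5.75 to 12.9 CPM in controls at 400 ppm (median 8.12) and 7.55 to 11.9 CPM at 650 ppm. SI-9 roots had 2.05, 4.09 and 1.64 CPM at 400 ppm and 0, 0.122 and 0.209 CPM at 650 ppm, the latter below every other library. Eucgr.H00185.1 and Eucgr.H00187.1, with 83.8% and 87.5% of reads matching 1 gene only, were lower by 2.36-fold to 3.68-fold and by 1.47-fold to 2.27-fold in the 4 groups.

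Elevated CO2 was then compared within each kind of root, a contrast that the rule did not use. In control roots 51 members were called by edgeR's quasi-likelihood test (adjusted p of 0.05, 23 libraries), 34 higher and 17 lower at 650 ppm, which is 42.5% of the members, as of all 27386 genes tested (5477 of these higher and 6169 lower). In SI-9 roots 34 were called, 16 of them higher and 18 lower, where 23.9% of all genes were called, 12% in each direction. In SI-12 roots the count was 53, with 18 higher and 35 lower, where 34.1% of all genes were called, 17.6% higher and 16.5% lower. With 10 sets as replicates, edgeR called 2 members in control roots (1.45% of all genes) and 0 in SI-9 and 0 in SI-12 roots (0.0% of all genes in both), while 21, 22 and 22 members had a raw p below 0.05 (17.5%, 18.3% and 18.3%), as did 18.8%, 15.6% and 12.3% of all genes. Fitting only the SI-9 groups gave 17 members for CO2 in SI-9 roots in place of 34, where 13.3% of all genes were called. DESeq2 on the same sets called 12, 13 and 10, against 11%, 7.51% and 5.16% of all genes. By library values alone, every control library at 650 ppm was above every one at 400 ppm for 26 members and below for 11, and 30.0% of all expressed genes were apart in this way. The same counts were 24 and 24 in SI-9 roots (35.4% of all) and 31 and 42 in SI-12 roots (54.8% of all). The members' control level was above that of all genes, as given earlier. Neither its part in these counts nor that of the rule's limits on library values was tested.

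With 23 libraries, 11 members were called for CO2 in control, SI-9 and SI-12 roots alike, against 5.65% of all genes. For 6 of them (2.85% of all genes) the 3 calls had 1 direction. In none of the 3 kinds of root were 32 members called, against 32.9% of all genes. Between SI-9 and SI-12 roots, the calls had 1 sign for 13 members and opposite signs for 7, against 6.17% and 4.33% of all genes. Control libraries numbered 1 to 12 gave 46 higher and 12 lower members, with a median log2 fold change of 0.28 over members and -0.03 over all genes, of which 18.6% were higher and 18.4% lower. Those numbered 13 to 24 gave 24 higher and 28 lower, with medians of -0.04 and -0.01, where 18.2% of all genes were higher and 18.1% lower. Whether the CO2 response differed between the library numbers was not tested.

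**Figure D4:**
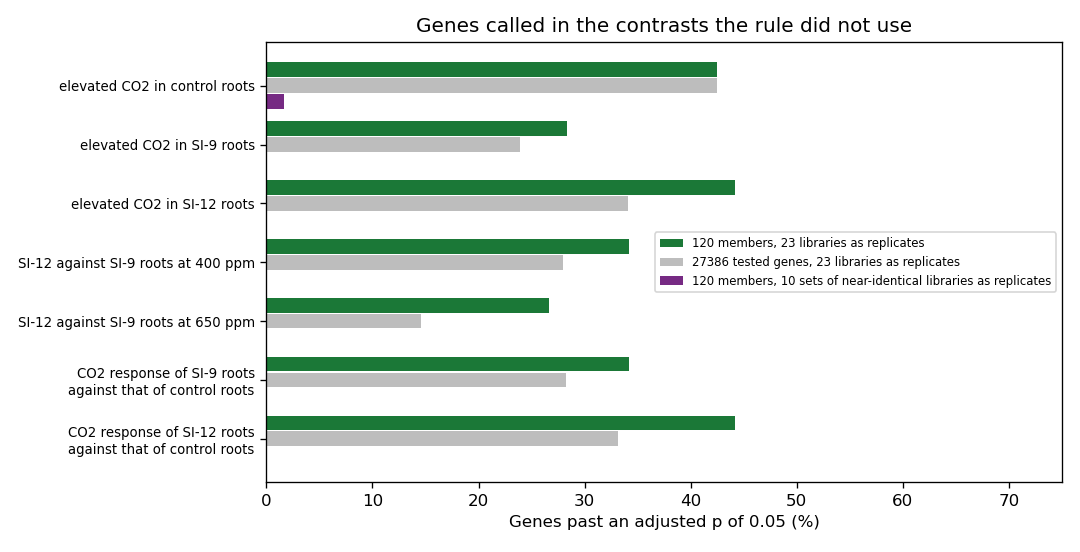
Share of genes past an adjusted p of 0.05 (horizontal axis, %) in the 7 contrasts that the rule did not use (rows), for the 120 members and all 27386 tested genes with 23 libraries as replicates, and for the members with 10 sets as replicates, all by edgeR. With libraries the members run from 26.7% to 44.2%, and with sets only the first contrast has any call.

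Of the 6 members with the highest control level per kb, Eucgr.F03054.1 changed most with CO2 in colonised roots. It had 426 to 542 CPM in controls at 400 ppm (median 479) and 510, 533, 583, 642 and 646 CPM in controls at 650 ppm. SI-9 roots went from 251, 300 and 238 CPM at 400 ppm to 71.1, 66.8 and 131 CPM at 650 ppm, and SI-12 roots from 324, 356 and 351 CPM to 71.4, 81.1 and 72.6 CPM. In both fungi no library at 650 ppm reached the lowest one at 400 ppm, whereas the ranges of the controls overlapped. The log2 fold change was -1.54 (SE 0.17, adjusted p = 3.04e-06 by edgeR with 23 libraries) in SI-9 roots and -2.21 (SE 0.18, adjusted p = 1.40e-08) in SI-12 roots, against 0.29 (SE 0.12, adjusted p = 0.063) in controls. With 10 sets the adjusted p-values were 0.127, 0.186 and 0.661, and the raw ones 0.002, 0.0012 and 0.373. The CO2 response differed from that of controls by -1.83 in SI-9 roots (adjusted p = 2.34e-06) and by -2.50 in SI-12 roots (adjusted p = 3.24e-08), with adjusted p-values of 0.157 and 0.189 for sets.

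**Figure D5:**
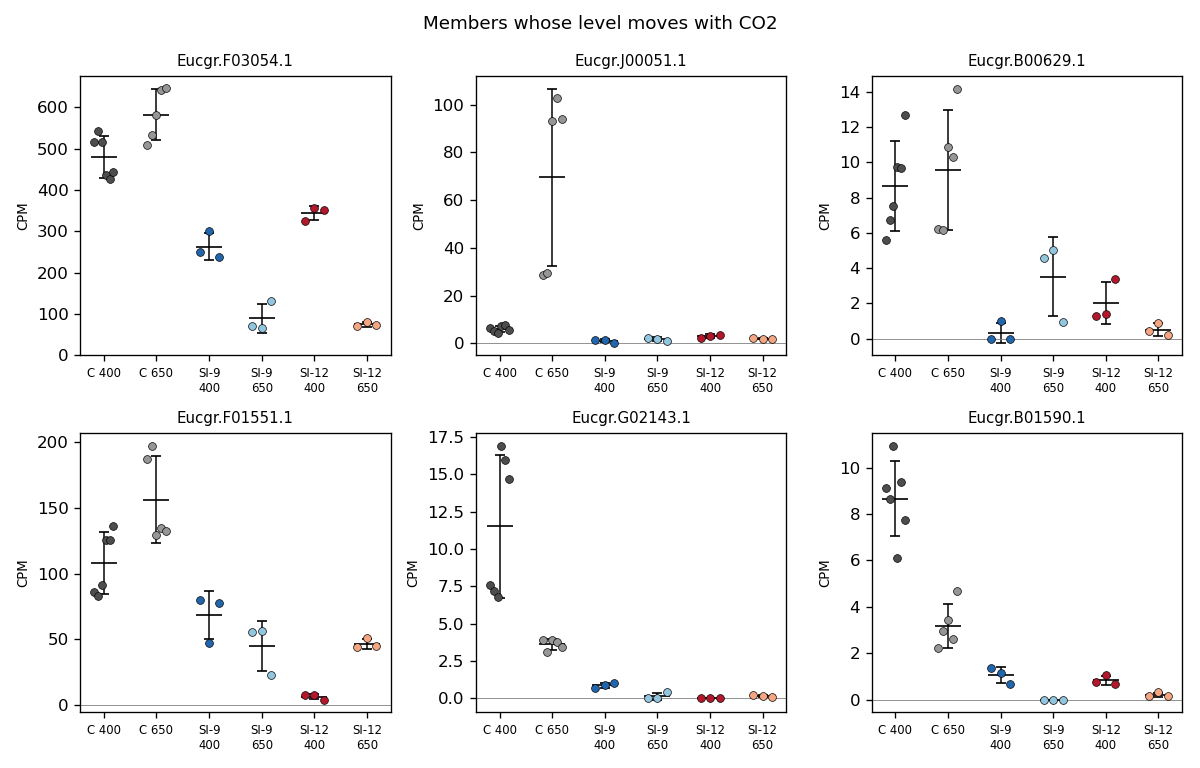
CPM (vertical axes, linear) of Eucgr.F03054.1 and of 5 members named for the largest change with CO2, by group (horizontal axis; C, control; ppm CO2); each point is a library, the bar is the group mean and the whisker its SD. Eucgr.J00051.1 rises in controls at 650 ppm, to 28.8 to 103 CPM, and stays at 3.72 CPM or below in each colonised library. The rule itself keeps colonised libraries below its lowest control, 4.34 CPM.

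Eucgr.J00051.1 had the largest rise with CO2 among members in control roots. It had 4.34 to 7.56 CPM in controls at 400 ppm (median 6.10) and 28.8, 29.6, 93.1, 103 and 94.0 CPM at 650 ppm, with no overlap, although libraries 3 to 5 stood well above libraries 1 and 2. SI-9 roots had 1.37, 1.56 and 0.297 CPM at 400 ppm and 2.46, 2.03 and 0.836 CPM at 650 ppm, and SI-12 roots had 2.25, 3.19 and 3.72 CPM and 2.18, 2.01 and 1.84 CPM. The rise in controls had a log2 fold change of 3.53 (SE 0.34, adjusted p = 5.02e-08 by edgeR) and an adjusted p of 0.0805 with 10 sets. It was 2.50 with controls numbered 1 to 12 alone and 3.80 with those numbered 13 to 24. The CO2 response of SI-12 roots differed from it by -4.15 (SE 0.63, adjusted p = 4.09e-05, and 0.31 with sets). In colonised roots its log2 fold changes with CO2 were 0.87 (SE 0.63, adjusted p = 0.349) with SI-9 and -0.62 (SE 0.53, adjusted p = 0.39) with SI-12. The rule held each colonised library below the lowest control, 4.34 CPM. A rise to the levels of controls at 650 ppm could therefore not appear, and the difference in CO2 response is not free of the rule.

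The 2 members that passed with sets in control roots were Eucgr.G03037.1 and Eucgr.D02045.1, named here for that result. Eucgr.G03037.1 had 28.8 to 72.4 CPM in controls at 400 ppm (median 48.2) and 247, 274, 481, 524 and 499 CPM at 650 ppm, a rise of 2.94 on the log2 scale (adjusted p = 0.0468 by edgeR with 10 sets). Colonised roots had 5.47 to 22.9 CPM over both CO2 levels. The rule held them below the lowest control, 28.8 CPM, so a rise to the levels of controls at 650 ppm could not appear. Eucgr.D02045.1 did the opposite in controls, with 48.2 to 76.8 CPM at 400 ppm (median 61.4) and 19.3 to 21.6 CPM at 650 ppm, a log2 fold change of -1.60 (adjusted p = 0.0295 with sets). SI-9 roots had 6.91 to 10.1 CPM over both CO2 levels (log2 fold change 0.27, adjusted p = 0.283 by edgeR with 23 libraries). SI-12 roots rose from 8.52 to 12.3 CPM at 400 ppm to 16.2 to 18.9 CPM at 650 ppm (0.74, SE 0.17, adjusted p = 0.00217 by the same fit). Both calls in control roots were lost with 9 sets, when the set of SI-9 library 2 (400 ppm) was dropped.

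Eucgr.G02143.1, described earlier for its gap, had the largest fall with CO2 in control roots, with a log2 fold change of -1.66 (SE 0.41, adjusted p = 0.00298 by edgeR). The call was lost with 10 sets (adjusted p = 0.45) and with controls numbered 1 to 12 alone (-1.001, adjusted p = 0.259). Its CO2 response in SI-12 roots differed from that in controls (adjusted p = 0.0154), but SI-12 roots had 0 reads at 400 ppm and 7 at 650 ppm, so the fitted size of 6.18 depends on the prior count and is no bound. That call was also lost without SI-12 library 1 at 650 ppm (adjusted p = 0.0599) and with controls numbered 1 to 12 alone (0.0508).

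In SI-9 roots the largest rise and fall with CO2 were those of Eucgr.B00629.1 and Eucgr.B01590.1. Eucgr.B00629.1 had 0, 0.973 and 0 CPM at 400 ppm, with all 10 reads in library 2, and 4.58, 5.00 and 0.919 CPM at 650 ppm, with library 3 lowest and below library 2 at 400 ppm. Both libraries that stand apart from their groups held a value unlike the other libraries of their group. The log2 fold change was 3.28 (SE 0.83, adjusted p = 0.00642 by edgeR, and 0.393 with sets), and it was 8.97 without library 2, when the group at 400 ppm has no reads and the size depends on the prior count. The difference of this response from that of controls, 3.12 (SE 0.95, adjusted p = 0.0178, and 0.526 with sets), was lost without SI-9 library 3 at 400 ppm (adjusted p = 0.0751) or SI-9 library 2 at 650 ppm (0.0504).

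Eucgr.B01590.1 had 1.37, 1.17 and 0.669 CPM in SI-9 roots at 400 ppm and none at 650 ppm, at least 23.6-fold lower (adjusted p = 9.00e-07 by edgeR, and 0.0988 with sets). SI-12 roots had 0.783, 1.06 and 0.677 CPM at 400 ppm and 0.159, 0.322 and 0.175 CPM at 650 ppm, and controls 6.11 to 10.9 CPM at 400 ppm (median 8.89) and 2.23 to 4.69 CPM at 650 ppm. Levels were thus lower at 650 ppm in every kind of root. The CO2 response of SI-9 roots differed from that of controls (adjusted p = 2.06e-05, and 0.0874 with sets), with a fitted size that rests on the group without reads.

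In SI-12 roots the largest rise with CO2 was that of Eucgr.F01551.1, from 7.34, 7.87 and 4.13 CPM at 400 ppm to 44.0, 50.8 and 44.7 CPM at 650 ppm, with no overlap. The log2 fold change was 2.87 (SE 0.34, adjusted p = 2.47e-06 by edgeR, and 0.245 with sets). Controls had 83.2 to 136 CPM at 400 ppm (median 108) and 129 to 197 CPM at 650 ppm, and SI-9 roots had 79.9, 47.3 and 77.6 CPM and 55.4, 56.7 and 22.9 CPM. SI-12 roots at 400 ppm were thus the lowest group by a wide margin. The largest fall was that of Eucgr.G01843.1, from 4.79 to 6.50 CPM down to 0.478 to 1.05 CPM (log2 fold change -3.08, SE 0.66, adjusted p = 0.00121, and 0.307 with sets).

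SI-12 and SI-9 roots were compared at each CO2 level. At 400 ppm 41 members were called, 21 with more and 20 with less in SI-12 roots, where 28.0% of all genes were called, 12.6% with more and 15.4% with less. At 650 ppm the count was 32, with 9 up and 23 down, where 14.5% of all genes were called, 6.52% up and 8.02% down. With 10 sets edgeR called 0 at either level (0.0% of all genes), while 17 and 22 members had a raw p below 0.05 (14.2% and 18.3%), as did 10.3% and 7.42% of all genes. DESeq2 called 7 and 8 (3.05% and 2.13% of all genes). Fitting only the groups compared gave 21 members at 650 ppm in place of 32, where 13.3% of all genes were called. Without SI-9 library 1 at 400 ppm, the shallowest library, the count at 400 ppm was 27. The share of all genes called in that fit is not given.

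Eucgr.B01007.1, of which 83.5% of reads matched 1 gene only, had the largest difference in favour of SI-12 at 400 ppm, with 0.228, 1.36 and 0.52 CPM in SI-9 roots and 5.09, 4.57 and 6.30 CPM in SI-12 roots. At 650 ppm the order was the opposite, with 4.36, 6.02 and 6.43 CPM in SI-9 roots and 0.903, 0.322 and 0.7 CPM in SI-12 roots. The log2 fold changes of SI-12 over SI-9 were 2.77 (SE 0.54, adjusted p = 0.00071 by edgeR) at 400 ppm and -3.11 (SE 0.50, adjusted p = 0.000247) at 650 ppm, with adjusted p-values of 0.417 and 0.469 for sets. Controls had 8.43 to 28.9 CPM at 400 ppm (median 15.7) and 26.2 to 31.1 CPM at 650 ppm.

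Other extremes between strains rested on groups without reads. Eucgr.L00902.1 had 1.14, 0.584 and 1.12 CPM in SI-9 roots against none in SI-12 roots at 400 ppm, at least 10.8-fold lower (adjusted p = 0.000191 by edgeR, and 0.36 with sets). Eucgr.G00595.1 had 1.68, 1.95 and 0.0836 CPM in SI-9 roots and none in SI-12 roots at 650 ppm, at least 17.6-fold lower (adjusted p = 0.00183, and 0.599 with sets), with SI-9 library 3 again apart. Eucgr.B01590.1, at 0.159 to 0.322 CPM in SI-12 roots from 9 reads and none in SI-9 roots at 650 ppm, exceeded the floor of SI-9 roots by at least 4.84-fold (adjusted p = 0.00146, and 0.318 with sets).

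The CO2 responses of colonised and control roots were compared directly. In SI-9 roots the response of 41 members differed from that in control roots, 16 upward and 25 downward, where 28.2% of all genes differed, 14.9% upward and 13.3% downward. In SI-12 roots that of 53 did, 19 upward and 34 downward, where 33.2% of all genes differed, 18.1% upward and 15.0% downward. Both comparisons use the same controls. With 10 sets edgeR called 0 members in either (0.334% and 0.0695% of all genes), while 23 and 20 had a raw p below 0.05 (19.2% and 16.7%), as did 15.1% and 12% of all genes. DESeq2 called 13 and 10 (6.73% and 4.81% of all genes). With controls numbered 1 to 12 the SI-9 comparison gave 10 members upward and 35 downward, where 13.9% of all genes went each way, and with those numbered 13 to 24 it gave 25 and 21, where 16.8% and 16.2% did. For SI-12 the members' counts were 10 and 42 with controls numbered 1 to 12 (18.4% and 16.8% of all genes) and 20 and 29 with the others (17.6% and 16.3%). In all, 25 members were called in none of the 7 contrasts with 23 libraries, against 7388 of all 27386 genes tested.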

How the data were processed

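The authors deposited 1 table per library, with a count of total gene reads, a count of reads that matched 1 gene only, a gene length and an RPKM for 36376 genes, per the file headers. The deposited RPKM values were not used. No aligner, genome build or strand setting is given in the sources used here, and 0 gene IDs matched the reference table.

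CPM was computed from total gene reads without Eucgr.B01584.1, which took 0.157% to 16.2% of a library. Reads that matched 1 gene only were 95.7% to 96.5% of gene reads. Tests were made with edgeR 4.0.16 (limma 3.58.1, R 4.3.3) by the 2-sided quasi-likelihood test with TMM scaling, filterByExpr and Benjamini-Hochberg adjustment at 0.05 over all 27386 tested genes, in 1 fit of 23 libraries with 6 group means. All 120 members passed the filter. The SE is that implied by the test statistic. DESeq2 1.42.0, other scalings and filters, 10 sets of near-identical libraries (coefficient of variation under 0.2) and libraries left out were alternatives. A set alone in its group was taken to vary like the other sets. The mean of 10 sets, controls of the strain's own library numbers, and dropping SI-9 library 2 (400 ppm) together with library 3 (650 ppm) were added after seeing the data. On simulated data with independent libraries, the test recovered 0.26 to 0.56 of genes changed 2-fold and 0.53 to 0.75 of those changed 4-fold, by contrast. Figures were drawn with matplotlib 3.10.9.

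The members, contrasts and rules were chosen with earlier results of these data known. Named genes are the 6 with the lowest ratio of highest mycorrhizal to lowest control CPM, the 6 with the highest control median per kb, those nearest the threshold, the called members with the largest rise and fall in each contrast, and the longest run of neighbouring IDs, where a tie of 9 pairs was settled by the lowest ratio after the values were seen. Other genes named for their values are said to be so.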

Additional observations from a re-analysis of the deposited data

Results flagged for a closer look

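Eucgr.B01007.1 in control roots at 650 ppm had 1 library away from the others, library 2 at 31.1 CPM, where the other 4 had 26.2 to 27.6 CPM. It was the 1 such gap among 50 groups tested, and such a gap arises by chance in about 1 of 20 groups.

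The CO2 response differed from that of controls for 41 members in SI-9 roots and 53 in SI-12 roots (edgeR, 23 libraries). The 4 given here are the called members with the largest rise and fall in each comparison. Eucgr.J00051.1 differed by -4.15 on the log2 scale in SI-12 roots (SE 0.63, adjusted p = 4.09e-05), where every control library at 650 ppm was above every one at 400 ppm and colonised roots had at most 3.72 CPM. The rule itself kept colonised roots below 4.34 CPM, the lowest control of this gene. Eucgr.B00629.1 differed by 3.12 in SI-9 roots (adjusted p = 0.0178). Eucgr.B01590.1 differed by -5.74 in SI-9 roots (adjusted p = 2.06e-05) and Eucgr.G02143.1 by 6.18 in SI-12 roots (adjusted p = 0.0154), both fitted sizes that rest on a group without reads. With 10 sets as replicates the adjusted p-values were 0.31, 0.526, 0.0874 and 0.456 in this order.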

How the results depend on the processing

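The number of members was 160 under TMM scaling, 157 under DESeq2 size factors and 140 with Eucgr.B01584.1 kept in the totals, in each case with all 120 among them, and 117 with reads that match 1 gene only, 113 of them among the 120. It was 4 with a 2-fold margin, 747 with libraries numbered 1 to 12 only, 1512 with those numbered 13 to 24 only, 418 with means of the 10 sets, and 190 when each strain was set against controls of its own library numbers, as fewer or averaged libraries make the rule easier to meet. Leaving out 1 library gave 122 to 164 members, the most without SI-9 library 3 at 650 ppm.

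Calls of members depended on what was taken as a replicate. In the order CO2 in control, SI-9 and SI-12 roots, strains at 400 and 650 ppm, and CO2 response of SI-9 and SI-12 against control roots, 23 libraries gave 51, 34, 53, 41, 32, 41 and 53. With 10 sets edgeR gave 2, 0, 0, 0, 0, 0 and 0, DESeq2 gave 12, 13, 10, 7, 8, 13 and 10, and 9 sets without that of SI-9 library 2 at 400 ppm gave 0 in each by edgeR. Fits of only the groups compared gave 55, 17, 60, 32, 21, 37 and 54. For CO2 in SI-9 roots such a fit called 13.3% of all genes, against 23.9% with all groups. For strains at 650 ppm the shares were 13.3% and 14.5%. Leaving out 1 library gave 45 to 59, 23 to 41, 41 to 59, 27 to 46, 24 to 33, 29 to 47 and 44 to 55. Shares of all genes are not given for these fits or for those with a replicate block. Whether all genes moved alike was not compared there. With replicate number as a replicate block the counts were 46, 33, 50, 39, 29, 38 and 51, but same-numbered libraries did not deviate together (correlations of -0.0557 to 0.107), so the numbers pair nothing. Alternatives were run for 14 calls of named genes, and none of these reversed in them. All 14 were lost with 10 sets by edgeR, 6 of them also by DESeq2, and 2 when a library was left out. Library totals without TMM moved the median of all genes by -0.11 for CO2 in SI-12 roots and by -0.10 for strains at 650 ppm. The cause of the lost calls was not tested. Levels under 0.0995 to 0.683 CPM rest on fewer than 3 reads.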
